A study of Arabidopsis thaliana with 18 samples.

Results

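The tau and phi glutathione S-transferases (GSTs) of Arabidopsis were followed in shoots of seedlings grown with or without the root endophyte Serendipita indica. The members were the genes of the deposited table listed as GSTU (tau) or GSTF (phi), taken by gene identifier, without GSTU20, GSTF11, and GSTF12, which act in glucosinolate and anthocyanin pathways. They number 38 of 33039 genes, 27 of the tau and 11 of the phi class. All plants were wild type (Col-0). Seedlings 9 days old were moved to PNM plates, a cocultivation medium, inoculated with S. indica (Si) or left without it (CK), and kept at 22, 25, or 28°C. The aboveground parts were harvested at 7 days post inoculation (dpi), so that the RNA came from shoots while the fungus was placed at the roots. With 3 samples in each of the 6 groups there were 18 samples, which the labels call biological replicates without saying how many plants or plates went into each. If the samples of a group shared a culture, the p-values measure only the spread between these samples.

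GSTs join the tripeptide glutathione to reactive, often toxic molecules, and many also reduce peroxides or bind small ligands without converting them. The conjugates are carried into the vacuole and broken down there or in the cytosol. The tau and phi classes are the plant classes with most members, and many of their genes respond to pathogens, salicylic acid, jasmonic acid, oxidative stress, or herbicide safeners. TGACG is the core of the as-1 element, bound by bZIP factors of the TGA family, and TTGAC is the core of the W-box, bound by WRKY factors; both elements are known from promoters of stress-inducible GSTs.

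The windows of 250 bases before the annotated starts of 3 members are shown because these genes carry results described here: GSTF7, with one of the largest rises in Si plants at 28°C, GSTU1, whose difference between Si and CK plants was large at 25°C and small at 22 and 28°C, and GSTF10, which rose at all temperatures. Sequences are RefSeq's for TAIR10.1, given 5′ to 3′ on the strand of the gene. Capitals mark TTGAC in GSTF7 and TGACG in GSTU1 and GSTF10, read on both strands, so that GTCAA is TTGAC on the other strand. Each window is marked for 1 motif only. TTGAC also occurs in the windows of GSTU1 (2 copies) and GSTF10 (1 copy), left in lower case, and GSTF7 has 0 copies of TGACG. The windows lie at chr1:659981-660230 (minus strand), chr2:12632539-12632788 (minus), and chr2:13141040-13141289 (plus).
GSTF7: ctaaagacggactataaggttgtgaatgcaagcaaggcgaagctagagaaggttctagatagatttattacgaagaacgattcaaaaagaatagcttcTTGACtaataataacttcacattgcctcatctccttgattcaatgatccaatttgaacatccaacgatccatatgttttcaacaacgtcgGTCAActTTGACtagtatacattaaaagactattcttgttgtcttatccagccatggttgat
GSTU1: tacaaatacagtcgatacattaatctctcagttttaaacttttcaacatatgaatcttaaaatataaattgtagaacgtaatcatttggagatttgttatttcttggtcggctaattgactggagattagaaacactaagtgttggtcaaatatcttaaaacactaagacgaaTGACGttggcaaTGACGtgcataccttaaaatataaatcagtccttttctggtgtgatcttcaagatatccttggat
GSTF10: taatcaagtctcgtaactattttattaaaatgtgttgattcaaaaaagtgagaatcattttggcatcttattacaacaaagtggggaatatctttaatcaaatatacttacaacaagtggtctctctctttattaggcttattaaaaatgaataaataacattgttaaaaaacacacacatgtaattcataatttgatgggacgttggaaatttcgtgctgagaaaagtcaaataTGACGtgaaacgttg

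TTGAC stood 152, 62, and 55 bases before the start in GSTF7. In GSTU1, 2 copies of TGACG lay 77 and 65 bases before the start, 12 bases apart, and in GSTF10 the single copy lay 15 bases before it. TGACG occurred in the windows of 14 of the 38 members (36.8%), against 18.6% of 27443 windows of the same length before all protein-coding genes. TTGAC occurred in 22 of 38 (57.9%), against 44.9%. TGACGTCA, which contains TGACG, occurred in 1 of 38 (2.63%), against 0.503%, and the G-box CACGTG in 3 of 38 (7.89%), against 6.49%. A pair of TGACG with starts 12 bases apart as in GSTU1, searched only after the windows had been seen, occurred in GSTU1 and GSTU7 and in 17 of all windows (0.0619%). Among the 8 members called higher in Si plants at all 3 temperatures, TTGAC was in 6 windows (75%) and TGACG in 2 (25%). Of the other 30 members, 53.3% had TTGAC and 40% had TGACG. These 30 are not the members tested, since they include those with too little TPM to be tested or called. The 8 were picked by these same data, and GSTU12 among them passed the filter on low values only through Si samples. The difference between the 2 sets was not tested. Counted windows were not cut where they run into a neighbouring gene, as that of GSTU18 (with 1 G-box) does into GSTU17. Matches of this kind describe letters in a short window and are no evidence of binding.

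Expression was measured by RNA-seq and deposited as TPM, a transcript abundance corrected for gene length and scaled to the same sum in every sample. Read numbers are therefore unknown, and how precise a value is can only be read from the 3 samples of its group. Replicates of a group had correlations of 0.975 to 0.984 over genes, which are not independent of each other. Root marker transcripts were nearly absent: 11 markers summed to between 0.46 and 3.08 TPM in Si samples and between 0.59 and 9.55 TPM in CK samples, and 10 of the 11 did not pass the filter on low values. The 5 shoot markers summed to 26837 to 27760, 24731 to 25637, and 20341 to 21584 TPM in Si samples at 22, 25, and 28°C. CK samples had 24447 to 26264, 23962 to 24556, and 22602 to 24661 TPM. The Si sums thus lay above the CK sums at 22 and 25°C and below them at 28°C. Single markers did not all stay level either. LHCB1.1 and LHCB2.1, which encode chlorophyll-binding proteins and have close copies, were called lower in Si plants at 22°C (log2 fold changes −2.15 and −1.81), and the median of the 5 was −0.17, −0.23, and −0.48 at 22, 25, and 28°C. The only root marker tested, CASP1 of the endodermis, was called lower in Si plants at 28°C (−1.29). Their part in the results was not tested. In bulk shoots, more transcript per cell and more cells of a type that expresses a gene cannot be told apart.

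The members together made up a larger share of the transcripts in Si than in CK shoots at every temperature. They summed to 4279 ± 424, 4808 ± 188, and 5665 ± 357 TPM in Si plants at 22, 25, and 28°C, against 1933 ± 148, 1763 ± 27.6, and 1864 ± 115 TPM in CK plants (SD, n = 3 each). The lowest Si sum at any temperature was higher than the highest CK sum. Most of this sum came from the phi class, with 3112 ± 343, 3536 ± 162, and 4691 ± 330 TPM in Si plants and 1176 ± 129, 1037 ± 40.7, and 1076 ± 137 TPM in CK plants. The tau class summed to 1167 ± 94.8, 1272 ± 83.3, and 973.7 ± 45.0 TPM in Si plants and 757.1 ± 54.4, 726.6 ± 13.2, and 787.6 ± 21.9 TPM in CK plants. Thus the Si level of the phi sum was highest at 28°C, where that of the tau sum was lowest. In each group 7 genes, GSTF9, GSTU19, GSTF10, GSTF2, GSTF6, GSTF7, and GSTF8, held between 75.7 and 89.1% of the member TPM.

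**Figure D1:**
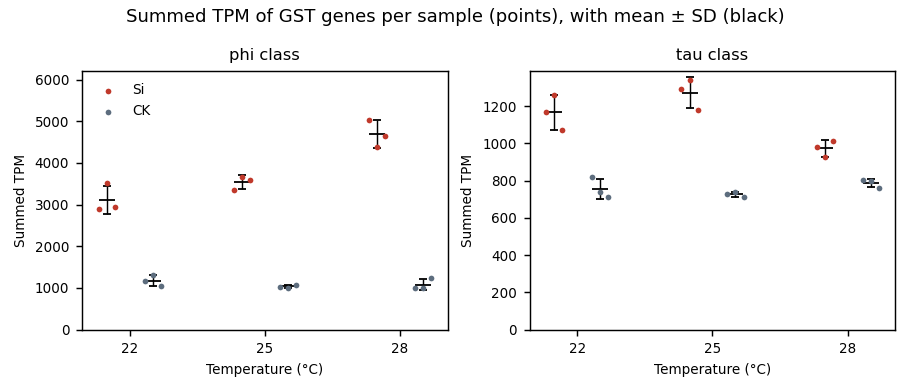
Summed TPM of the phi members (left panel) and tau members (right panel) in each of the 18 samples against temperature, with Si samples in red to the left of CK samples in grey and black bars for the mean ± SD of 3 samples. In Si plants the phi sum averaged 3112 TPM at 22°C and 4691 TPM at 28°C, while the 9 CK samples lie between 995 and 1313 TPM; both axes start at 0.

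Of the 38 members, 30 had at least 1 TPM in at least 3 samples and were tested, 20 of the tau and 10 of the phi class. Of these 30, 7 reached that filter only through Si samples (GSTU2, GSTU3, GSTU11, GSTU12, GSTU23, GSTF5, and GSTF14), so that these had to lean towards Si. The test was limma on log2(TPM + 1) with 6 group means, adjusted by the Benjamini-Hochberg method over all 20044 genes tested. A call needed an adjusted p no higher than 0.05 together with a log2 fold change above 1 in either direction. On this scale the change of genes with low TPM is understated.

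Between Si and CK, 11 of 30 members were called higher at 22°C (36.7%, where 8.00% of all genes tested were), 11 at 25°C (9.43% of all genes), and 15 at 28°C (7.95%). Without the 7 members that passed only through Si samples, 9, 10, and 11 of the other 23 were called higher, where 7.82%, 8.92%, and 6.66% of the 18659 genes that passed in CK samples alone were, a count added after seeing the data. No member was called lower (0 of 30 at each temperature, where 1.34%, 2.69%, and 1.72% of all genes were), and limma also gave no lower member at an unadjusted p under 0.05. By class, 6, 6, and 9 of 20 tau members and 5, 5, and 6 of 10 phi members were called at 22, 25, and 28°C. At an adjusted p of at most 0.05 with no limit on the fold change, 20, 21, and 19 members were higher (47.4%, 47.8%, and 43.5% of all genes) and 0 lower (10.7%, 13.5%, and 11.9%). The 3 Si values lay above the 3 CK values for 19, 24, and 23 members (49.3%, 51.8%, and 49.5% of all genes) and below them for 0 members (11.4%, 15.6%, and 14.4%). These counts and those by class include the 7 members that passed only through Si samples.

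The median log2 fold change over all genes tested lay towards Si on this scale, with 0.26, 0.26, and 0.22 at 22, 25, and 28°C. Of these genes, 74.0%, 71.6%, and 71.3% had a value above 0. The median over the 30 members was 0.70, 0.85, and 1.05. All member medians here include the 7 members that passed the filter only through Si samples and so lean towards Si. After median-of-ratios scaling, which brings the median of all genes to within 0.01 of 0, the members had medians of 0.53, 0.68, and 0.87, and 9, 8, and 12 were called higher (4.92%, 5.70%, and 5.16% of all genes) and 0 lower (2.50%, 4.22%, and 2.64%). Phi members had a median of 1.06, 1.03, and 1.73 and tau members of 0.67, 0.80, and 0.49 without that scaling. Called higher at all 3 temperatures were 8 members, GSTU4, GSTU12, GSTU13, GSTU24, GSTF6, GSTF7, GSTF9, and GSTF10, as were 3.10% of all genes. GSTU10, GSTU23, and GSTF8 were called at 2 temperatures, as were 4.17% of all genes. GSTU1, GSTU3, GSTU7, GSTU9, GSTU11, GSTF2, and GSTF3 were called at 1 (7.74% of all genes), and 12 members at none (85.0%). GSTU3, GSTU11, GSTU12, and GSTU23, each called at 1 or more temperatures, passed the filter only through Si samples. The 3 temperatures have their own Si and CK samples.

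**Figure D2:**
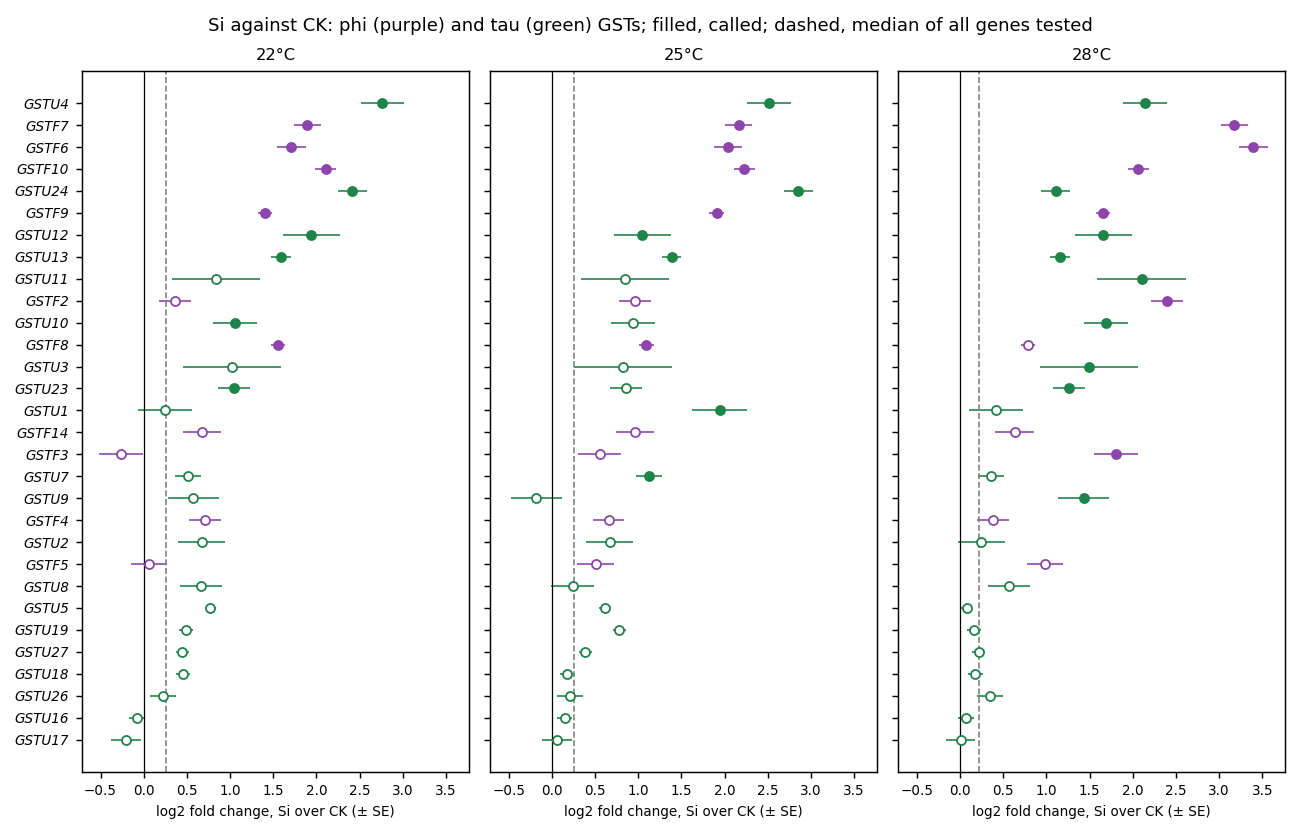
Log2 fold change of Si over CK (horizontal axis, ± SE) for each of the 30 members tested (rows, ordered by their mean over the 3 temperatures), at 22, 25, and 28°C from left to right, with phi members in purple, tau members in green, and filled points for called members. The dashed line is the median of all 20044 genes; GSTU4 stands at 2.76 at 22°C, and GSTF6 and GSTF7 at 3.40 and 3.18 at 28°C.

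Of the phi class, GSTF6 (AT1G02930) and GSTF7 (AT1G02920) showed the largest rises at 28°C. GSTF6 joins glutathione to an indole intermediate of camalexin, the main phytoalexin of Arabidopsis. The gene lies at chr1:661088-662475 and GSTF7 at chr1:658578-659980, both on the minus strand of TAIR10.1. In Si plants GSTF6 had at 22°C 298, 486, and 303, at 25°C 391, 494, and 452, and at 28°C 951, 808, and 899 TPM. Its CK values were at 22°C 100.2, 126, and 97.8, at 25°C 119.5, 98.4, and 105, and at 28°C 76.8, 76.6, and 97.3 TPM. The groups did not overlap at any temperature, and the Si values at 28°C stood above all others. The log2 fold change of GSTF6 was 1.71 ± 0.17 (SE, limma, adjusted p = 7.35e-07) at 22°C, 2.04 ± 0.17 (adjusted p = 7.13e-08) at 25°C, and 3.40 ± 0.17 (adjusted p = 1.62e-09) at 28°C, which is a 10.5-fold change on the scale with the pseudocount.

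GSTF7, its neighbour, followed the same order. GSTF7 had at 22°C 260.0, 447, and 293, at 25°C 359, 445, and 426, and at 28°C 683, 586, and 681 TPM in Si plants. In CK plants it had at 22°C 79.7, 98.9, and 82.2, at 25°C 99.5, 91.7, and 81.4, and at 28°C 66.0, 71.9, and 75.0 TPM. Here too, Si and CK values did not overlap. Its log2 fold changes were 1.89 ± 0.16, 2.16 ± 0.16, and 3.18 ± 0.16 (adjusted p = 1.6e-07, 2.31e-08, and 1.67e-09) at 22, 25, and 28°C. The coding sequences of the pair are 94.3% identical, and reads of the stretches they share may be split between them by the quantification, so that the level of each is less certain than their sum. The longest such stretch, 116 bases at coding positions 310 to 425 of GSTF6 and 313 to 428 of GSTF7, is shown in lower case because no base of it tells the genes apart.
Shared by GSTF6 and GSTF7: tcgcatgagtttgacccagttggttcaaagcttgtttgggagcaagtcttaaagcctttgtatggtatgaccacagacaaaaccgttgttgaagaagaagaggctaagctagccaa

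At 22°C, Si replicate 2 stood above the other Si samples for both genes, and it was the highest of its group for 20 of the 30 members. Si replicate 2 at 25°C was the highest for 16 and Si replicate 3 at 28°C for 17. The share over all genes was not counted. Without Si replicate 2 at 22°C the log2 fold change at 22°C was 1.48 for GSTF6 and 1.66 for GSTF7. Then 10 members were called higher in place of 11, and 7.61% of all genes in place of 8.00%. GSTF4 and GSTF5 follow GSTF6 on the same strand in 1 cluster of phi genes (chr1:658578-666471), both at low level. GSTF4 had means of 3.08 ± 0.64, 2.98 ± 0.19, and 2.86 ± 0.56 TPM in Si plants and 1.5 ± 0.54, 1.56 ± 0.58, and 1.96 ± 0.40 TPM in CK plants at 22, 25, and 28°C, and was not called. GSTF5, at most 2.28 TPM in any sample, was not called either, with 0.98 ± 0.21 at 28°C.

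GSTF9 (AT2G30860) and GSTF10 (AT2G30870) rose at all 3 temperatures. They lie next to each other on the plus strand (chr2:13138882-13142676), and GSTF9 had the highest mean TPM of all members. Si plants had at 22°C 976, 1102.5, and 928, at 25°C 1271, 1330.0, and 1356, and at 28°C 1478, 1432, and 1482 TPM of GSTF9. In CK plants there were at 22°C 396, 396, and 341, at 25°C 331, 357, and 365, and at 28°C 452, 421, and 528 TPM. No Si value overlapped with a CK value. The log2 fold changes of GSTF9 were 1.40 ± 0.08, 1.91 ± 0.08, and 1.65 ± 0.08 (adjusted p = 9.63e-09, 2.62e-10, and 1.99e-09). GSTF10, known as a partner of the receptor-like kinase BAK1, had at 22°C 608, 657, and 574, at 25°C 670.5, 686, and 657, and at 28°C 826, 701, and 745 TPM in Si plants. CK plants had at 22°C 164, 139, and 124, at 25°C 148, 117, and 168, and at 28°C 165, 172, and 206 TPM of it. Its log2 fold changes were close to each other, with 2.11 ± 0.12, 2.23 ± 0.12, and 2.06 ± 0.12 (adjusted p = 8.95e-09, 1.7e-09, and 7.26e-09), and the intervals of 1 SE overlap.

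GSTF8 (AT2G47730), whose promoter is widely used as a reporter of stress and defence, went the other way with temperature. In Si plants GSTF8 had at 22°C 381, 369, and 402, at 25°C 252, 269, and 243, and at 28°C 256, 226, and 226 TPM. In CK plants it had at 22°C 135, 132, and 124, at 25°C 104, 117, and 137, and at 28°C 136, 128, and 146 TPM. All Si values stood above all CK values, while the Si values at 25 and 28°C lay below those at 22°C. Its log2 fold change was 1.56 ± 0.08 at 22°C (adjusted p = 5.25e-09), 1.1 ± 0.08 at 25°C (adjusted p = 3.99e-08), and 0.79 ± 0.08 at 28°C, where it was not called by its size (adjusted p = 2.07e-06). At 25°C the value was 0.80 after median-of-ratios scaling, which ends the call.

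GSTF2 (AT4G02520) and GSTF3 (AT2G02930), near-identical copies on different chromosomes (94.5% of coding bases), were called at 28°C only. GSTF2, which binds camalexin and other indole compounds as ligands, had at 22°C 360.3, 431, and 417, at 25°C 395, 432, and 428, and at 28°C 823, 607, and 580.0 TPM in Si plants. Against these, CK plants had at 22°C 274, 405, and 276, at 25°C 218.5, 210.2, and 214, and at 28°C 96.3, 118, and 172 TPM. Si and CK values overlapped at 22°C and were apart at 25 and 28°C, and the highest Si values and the lowest CK values were both at 28°C. The log2 fold change of GSTF2 was 0.36 ± 0.19 (adjusted p = 0.11), 0.96 ± 0.19 (adjusted p = 0.000363), and 2.39 ± 0.19 (adjusted p = 9.18e-08) at 22, 25, and 28°C. GSTF3 was far lower, with at 22°C 4.66, 9.66, and 10.3, at 25°C 9.33, 10.3, and 10.7, and at 28°C 18.6, 22.1, and 21.8 TPM in Si plants. In CK plants GSTF3 had at 22°C 7.21, 13.7, and 8.69, at 25°C 8.0, 5.12, and 6.86, and at 28°C 4.34, 4.69, and 6.91 TPM. Its values overlapped at 22°C, with a log2 fold change of −0.26 ± 0.25 (adjusted p = 0.399), and reached 1.81 ± 0.25 at 28°C (adjusted p = 2.72e-05). Over all samples GSTF2 averaged 358.8 TPM and GSTF3 10.2 TPM, and their coding sequences share a run of 74 bases, so that a small share of GSTF2 reads given to GSTF3 could move the value of GSTF3, which was not tested. GSTF2 overlaps AT4G02510 on the other strand by 1442 bases, and that gene had −0.01, −0.36, and −0.39 at 22, 25, and 28°C. The labels name an alignment with orientation, but whether reads were counted by strand is not given in the sources used here. GSTF14 was not called, with 0.68 ± 0.22, 0.97 ± 0.22, and 0.63 ± 0.22, and GSTF13 was listed at 0 in all 18 samples.

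**Figure D3:**
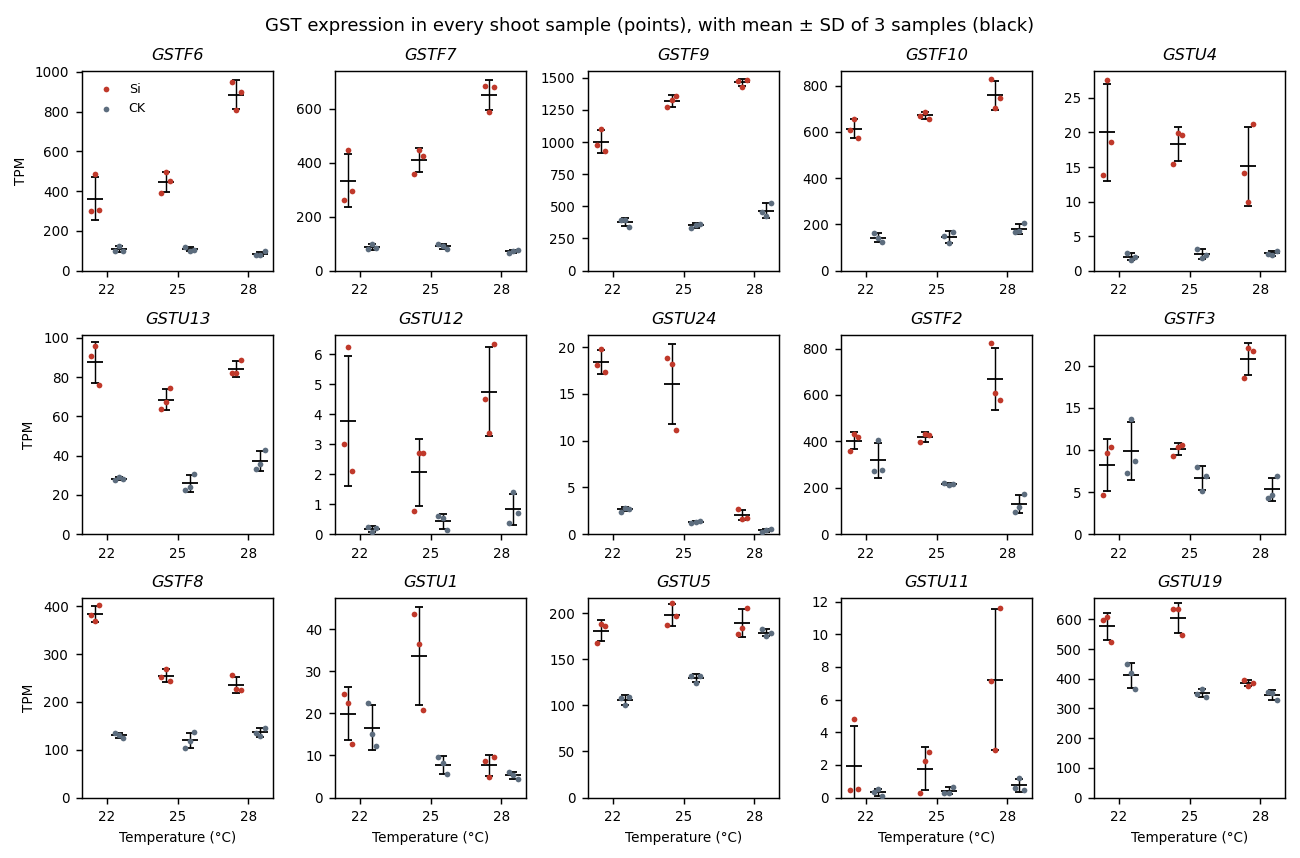
TPM (vertical axes, each starting at 0) of 15 members in every sample at 22, 25, and 28°C, with Si samples in red to the left of CK samples in grey and black bars for the mean ± SD of 3 samples, cut at 0 where the SD passes it. GSTF6, GSTF7, GSTF2, and GSTF3 have their highest Si values at 28°C, GSTF8 at 22°C, and GSTU24 at 22 and 25°C, with 2.65 TPM as its highest Si value at 28°C.

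Of the tau class, GSTU4 (AT2G29460) had the largest rise at 22°C. GSTU4 had at 22°C 13.8, 27.6, and 18.7, at 25°C 15.5, 19.9, and 19.6, and at 28°C 14.1, 9.96, and 21.3 TPM in Si plants. CK plants had at 22°C 2.50, 1.51, and 2.02, at 25°C 3.20, 1.81, and 2.25, and at 28°C 2.43, 2.22, and 2.90 TPM. Each Si value lay above each CK value. Its log2 fold changes were 2.76 ± 0.25, 2.51 ± 0.25, and 2.14 ± 0.25 (adjusted p = 4.28e-07, 6.74e-07, and 5.73e-06). GSTU13 (AT1G27130), which takes part in the immune metabolism of indole glucosinolates, had at 22°C 90.6, 95.9, and 76.0, at 25°C 63.9, 67.5, and 74.2, and at 28°C 81.8, 82.0, and 88.6 TPM in Si plants. In CK plants GSTU13 had at 22°C 27.6, 29.3, and 28.0, at 25°C 22.6, 24.1, and 30.7, and at 28°C 33.3, 35.8, and 43.0 TPM. No values overlapped, and the log2 fold changes were 1.59 ± 0.11, 1.39 ± 0.11, and 1.16 ± 0.11 (adjusted p = 4.16e-08, 7.28e-08, and 8.56e-07). After median-of-ratios scaling the last was 0.91, below the threshold on the fold change. Its neighbour GSTU14 did not pass the filter, with at most 0.20 TPM.

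GSTU24 (AT1G17170), an enzyme able to conjugate the explosive TNT, fell at 28°C in both treatments. Si plants had at 22°C 18.1, 19.9, and 17.3, at 25°C 18.9, 18.2, and 11.2, and at 28°C 2.65, 1.63, and 1.76 TPM. Its levels in CK plants were at 22°C 2.39, 2.81, and 2.73, at 25°C 1.21, 1.34, and 1.36, and at 28°C 0.2, 0.45, and 0.51 TPM. Si values were above CK values of the same temperature throughout, and both were lowest at 28°C. GSTU24 had log2 fold changes of 2.41 ± 0.17, 2.86 ± 0.17, and 1.11 ± 0.17 (adjusted p = 3.38e-08, 3.3e-09, and 5.57e-05). The last was 0.95 after median-of-ratios scaling, 0.71 after quantile normalization, and 0.97 without Si replicate 1 at 28°C, so that the call at 28°C ends in each case. In the same tandem cluster, GSTU25 did not pass the filter, and GSTU26 was not called, with 0.23, 0.21, and 0.35.

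GSTU12 (AT1G69920) was also called at all temperatures, at low level. It had at 22°C 3.0, 6.23, and 2.09, at 25°C 0.78, 2.70, and 2.71, and at 28°C 4.51, 3.38, and 6.33 TPM in Si plants. In CK plants it had at 22°C 0.25, 0.06, and 0.19, at 25°C 0.59, 0.54, and 0.13, and at 28°C 0.38, 1.40, and 0.7 TPM. The groups stayed apart, and the log2 fold changes were 1.94 ± 0.33, 1.05 ± 0.33, and 1.66 ± 0.33 (adjusted p = 0.00015, 0.0127, and 0.000619). The call at 25°C ends without Si replicate 2 or 3 or CK replicate 3 at 25°C (0.87, 0.87, and 0.89, adjusted p = 0.0577, 0.0571, and 0.0525) and with either scaling between samples (0.91 and 0.68). Its neighbour GSTU11 (AT1G69930) had at 22°C 0.49, 4.78, and 0.51, at 25°C 0.29, 2.21, and 2.80, and at 28°C 7.13, 2.94, and 11.6 TPM in Si plants. CK plants had at 22°C 0.34, 0.54, and 0.11, at 25°C 0.26, 0.3, and 0.65, and at 28°C 0.57, 1.20, and 0.47 TPM. Si replicates differed widely, and GSTU11 was called at 28°C alone, with 2.1 ± 0.51 (adjusted p = 0.00278).

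The 7 genes GSTU1 to GSTU7 form the tandem cluster with most members (chr2:12617936-12632538, minus strand), and they did not move as 1. GSTU1 (AT2G29490) had at 22°C 24.7, 22.4, and 12.8, at 25°C 43.6, 36.5, and 20.7, and at 28°C 8.57, 4.79, and 9.62 TPM in Si plants. In CK plants GSTU1 had at 22°C 22.5, 15.0, and 12.2, at 25°C 9.73, 8.09, and 5.57, and at 28°C 6.06, 5.41, and 4.43 TPM. Si and CK values overlapped at 22 and 28°C and were apart at 25°C, where the CK values were lower than at 22°C. The log2 fold change of GSTU1 was 0.25 ± 0.31 (adjusted p = 0.524), 1.94 ± 0.31 (adjusted p = 7.32e-05), and 0.42 ± 0.31 (adjusted p = 0.272) at 22, 25, and 28°C. GSTU2, 85.5% identical to GSTU1 in coding bases, had at most 2.41 TPM and was not called, with 0.67, 0.67, and 0.24.

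GSTU3 was called at 28°C, with 1.5 ± 0.57 (adjusted p = 0.0356), from 5.43, 1.66, and 7.85 TPM in Si plants and 0.82, 0.99, and 0.86 TPM in CK plants. That call ends under 8 alternatives, among them the removal of Si replicate 1 (1.36, adjusted p = 0.0956) or 3 (1.13, adjusted p = 0.146) or of CK replicate 1, 2, or 3 at 28°C (1.47, 1.53, and 1.49, adjusted p = 0.079, 0.0652, and 0.0725). GSTU5 (AT2G29450) is abundant, with at 22°C 168, 189, and 187, at 25°C 187, 211, and 197, and at 28°C 178, 184, and 206 TPM in Si plants. The CK values of GSTU5 were at 22°C 108, 99.9, and 109, at 25°C 132, 124, and 132, and at 28°C 183, 176, and 178 TPM. Its values were apart at 22 and 25°C and overlapped at 28°C, where CK plants had reached the Si level, and its log2 fold changes of 0.77 ± 0.06, 0.61 ± 0.06, and 0.08 ± 0.06 were too small to be called. GSTU7 was called at 25°C, with 1.13 ± 0.15 (adjusted p = 9.88e-06), against 0.51 ± 0.15 at 22°C and 0.36 ± 0.15 at 28°C, and its call ends after median-of-ratios scaling (0.83). AT2G08340, which overlaps GSTU7 by 636 bases on the other strand, had 0.21, 0.84, and 0.43.

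Of the remaining tau members, GSTU10 and GSTU23 were called at 22 and 28°C and GSTU9 at 28°C. GSTU10 averaged 7.97 ± 3.69, 9.64 ± 0.82, and 15.2 ± 4.33 TPM in Si plants and 3.11 ± 0.52, 4.57 ± 0.59, and 4.03 ± 1.27 TPM in CK plants, with log2 fold changes of 1.05, 0.94, and 1.69. At 22°C the call for GSTU10 ends without Si replicate 2 (0.75) or CK replicate 2 (0.95), and after median-of-ratios scaling (0.82) or quantile normalization (0.63). GSTU23 averaged 1.5 ± 0.40, 2.38 ± 0.51, and 2.92 ± 0.60 TPM in Si plants and 0.22 ± 0.25, 0.86 ± 0.23, and 0.62 ± 0.19 TPM in CK plants, with 1.04, 0.86, and 1.27. Its call at 22°C ends without Si replicate 1 (0.94) or CK replicate 2 (0.91) and with either scaling (0.98 and 0.82), and its call at 28°C ends after quantile normalization (0.85). GSTU9 had 4.82 ± 1.21 TPM in Si plants and 1.19 ± 0.69 TPM in CK plants at 28°C, with 1.43 ± 0.29 (adjusted p = 0.000758).

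GSTU19 (AT1G78380), the tau member with the highest level and a safener-inducible enzyme of wide substrate range, was not called at any temperature. It had at 22°C 598, 609, and 525, at 25°C 634, 634, and 547, and at 28°C 396, 376, and 385 TPM in Si plants. CK plants had at 22°C 449.9, 419, and 367, at 25°C 348, 365, and 338, and at 28°C 357, 351, and 328 TPM. All Si values lay above the CK values at the same temperature, by little at 28°C, and the log2 fold changes were 0.49 ± 0.08 (adjusted p = 8.25e-05), 0.78 ± 0.08 (adjusted p = 6.04e-07), and 0.16 ± 0.08 (adjusted p = 0.0923). GSTU8, GSTU16, GSTU17, GSTU18, GSTU26, and GSTU27 were not called either. Of these, GSTU16 had −0.08 ± 0.09, 0.15 ± 0.09, and 0.07 ± 0.09, and GSTU17, a regulator of light and abscisic acid responses, −0.20 ± 0.17, 0.06 ± 0.17, and 0.01 ± 0.17. GSTU17 and GSTU18 overlap by 71 bases on 1 strand. GSTU6, GSTU14, GSTU15, GSTU21, GSTU22, GSTU25, GSTU28, and GSTF13 were not tested, and GSTU6 had the highest value among them, 1.46 TPM in 1 sample.

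Whether the difference between Si and CK itself changed with temperature was tested by the interaction, called on an adjusted p of at most 0.05. Relative to 22°C, the Si effect at 28°C was larger for 5 members (16.7% of 30, where 6.92% of all genes were called), all of the phi class. One of the 5, GSTF5, passed the filter only through Si samples, so that the filter leaned towards a larger effect for it, and 4 of the 23 members that passed in CK samples alone were called (6.6% of such genes). It was smaller for 3 (where 10.2% of all genes were). The differences of log2 fold changes were 2.07 ± 0.36 for GSTF3 (limma, adjusted p = 0.00156), 2.04 ± 0.26 for GSTF2 (adjusted p = 0.000225), 1.69 ± 0.23 for GSTF6 (adjusted p = 0.000351), 1.28 ± 0.22 for GSTF7 (adjusted p = 0.00154), and 0.92 ± 0.30 for GSTF5 (adjusted p = 0.0446). The call for GSTF5 ends under 20 of the 25 alternatives that gave a value for it. GSTF2 and GSTF3 may share reads, as may GSTF6 and GSTF7, so that the members of each pair are not separate evidence. Smaller at 28°C were the effects on GSTU24 by 1.30 ± 0.24 (adjusted p = 0.00219), GSTF8 by 0.77 ± 0.12 (adjusted p = 0.000701), and GSTU5 by 0.69 ± 0.09 (adjusted p = 0.000232). For GSTU24, whose CK values at 28°C were below 0.6 TPM, a pseudocount of 0.1 gave −0.60 (adjusted p = 0.279).

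At 25°C relative to 22°C, the Si effect was larger for GSTU1, by 1.70 ± 0.44 (adjusted p = 0.0275), and GSTF9, by 0.50 ± 0.12 (adjusted p = 0.0157), and smaller for GSTF8, by 0.46 ± 0.12 (adjusted p = 0.0255). These are 2 of 30 members larger (6.67%, where 4.37% of all genes were called) and 1 smaller (3.33%, where 5.36% were). There was 1 call in place of 3 when Si replicate 1 at 25°C was left out, likewise for Si replicate 3 at 22°C, and 5 without CK replicate 3 at 22°C. Of all genes, 2.48%, 2.88%, and 5.65% were then called larger and 3.61%, 3.85%, and 5.91% smaller. The call for GSTU1 ends without Si replicate 3 at 22°C (1.42, adjusted p = 0.065), Si replicate 1 or 2 at 25°C (1.48 and 1.61, adjusted p = 0.0698 and 0.0604), CK replicate 1 or 2 at 22°C (1.46 and 1.74, adjusted p = 0.06 and 0.0505), or CK replicate 3 at 25°C (1.5, adjusted p = 0.0635), and with only the compared groups in the fit (adjusted p = 0.0533). For GSTF8 it ends with Si replicate 3 at 22°C (−0.43) or either of Si replicates 1 and 3 at 25°C (−0.45 and −0.43) removed. Both interactions use the samples at 22°C and are not independent.

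**Figure D4:**
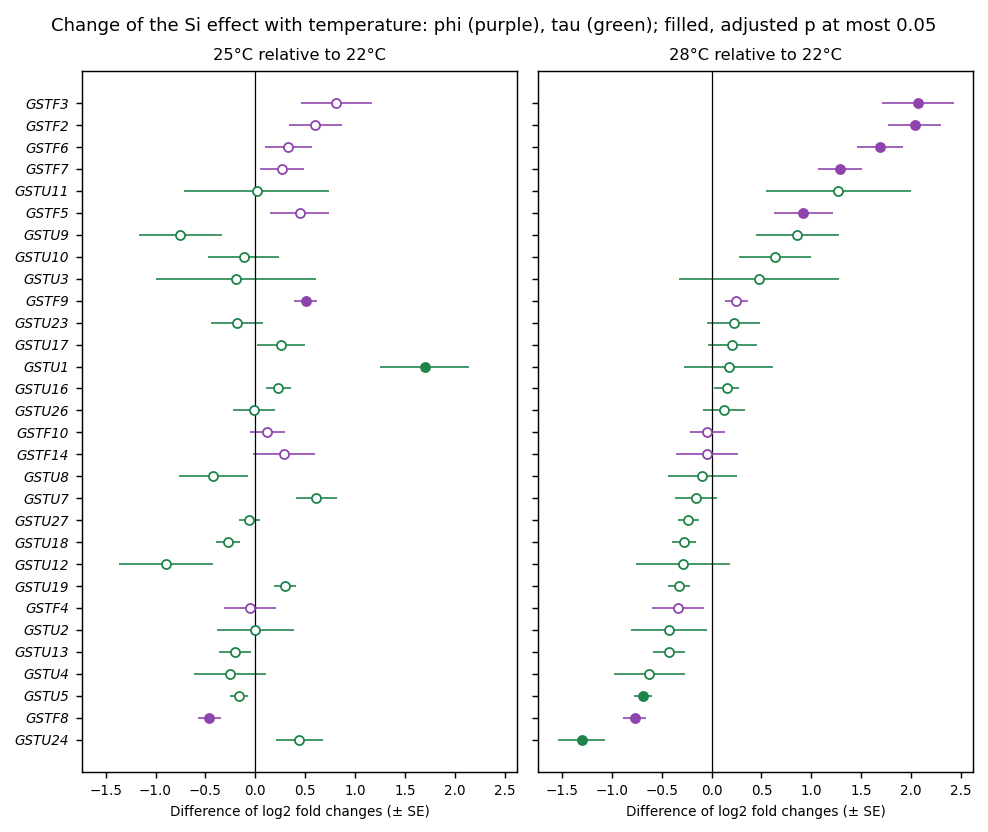
Difference between the log2 fold change of Si over CK at 25°C (left panel) or 28°C (right panel) and that at 22°C (horizontal axis, ± SE) for the 30 members tested (rows, ordered by the right panel), with phi members in purple, tau members in green, and filled points at an adjusted p of at most 0.05. At 28°C the 5 filled points right of 0 are phi members, from 0.92 for GSTF5 to 2.07 for GSTF3, and GSTU24 is at −1.30.

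Temperature alone moved few members past the thresholds. In CK plants at 25°C against 22°C, 0 of 30 members were called higher or lower (0.424% and 0.145% of all genes). At an unadjusted p under 0.05, limma gave 4 higher and 4 lower, and at an adjusted p of at most 0.05 with no limit on the fold change 3 and 1 (8.74% and 2.40% of all genes). At 28°C against 22°C, CK plants had 3 members called lower (0.649% of all genes) and 0 called higher (4.24% of all genes), where an unadjusted p under 0.05 gave 7 higher. With the adjusted p alone, 6 were higher and 6 lower (41.2% and 7.81% of all genes). The 3 were GSTU1 with −1.44 ± 0.31 (adjusted p = 0.00158), GSTU24 with −1.40 ± 0.17 (adjusted p = 1.28e-05), and GSTF2 with −1.32 ± 0.19 (adjusted p = 5.04e-05). With a pseudocount of 0.1 the lower count stayed at 3 (1.02% of all genes), and 2 members were called higher (8.23%).

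In Si plants, 0 of 30 members were called at 25°C against 22°C (0.843% of all genes higher, 1.32% lower), with 5 higher and 2 lower at an unadjusted p under 0.05 and 3 and 2 with the adjusted p alone (16.6% and 7.06% of all genes). At 28°C against 22°C, 3 were called higher (5.27% of all genes) and 2 lower (1.37%). With the adjusted p alone, 11 were higher and 5 lower (39.0% and 10.5% of all genes). GSTU11 had 1.65 ± 0.51 (adjusted p = 0.0149), GSTF6 1.32 ± 0.17 (adjusted p = 1.66e-05), and GSTF3 1.31 ± 0.25 (adjusted p = 0.000634). GSTU24 had −2.70 ± 0.17 (adjusted p = 3.84e-08) and GSTU1 −1.27 ± 0.31 (adjusted p = 0.00375). GSTF7 lay just under the threshold on the fold change, at 0.998 ± 0.16 (adjusted p = 0.000112). The count of 5 is 9 without Si replicate 2 at 22°C, 8 without Si replicate 2 at 28°C, and 3 without Si replicate 1 at 22°C. Of all genes, 5.78%, 5.35%, and 5.38% were then called higher and 1.22%, 1.38%, and 1.55% lower. The call for GSTU11 ends without Si replicate 1 or 3 at 22°C (1.32 and 1.33) or Si replicate 3 at 28°C (1.27), or with only the compared groups in the fit (adjusted p = 0.0824), and that for GSTF3 without Si replicate 1 at 22°C (0.99). These contrasts share their samples at 22°C with the interactions.

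Members that rose and members that were not called lay side by side in the genome. In all, 28 of the 38 members lie in 9 tandem clusters, with neighbours at most 20000 bases apart. In the cluster of GSTU19, GSTU21, GSTU22, and GSTU23 (chr1:29467412-29488007), GSTU23 was called at 2 temperatures, GSTU19 at none, and the other two did not pass the filter. In that of GSTU1 to GSTU7, GSTU4 was called at 3 temperatures, GSTU1, GSTU3, and GSTU7 at 1, and GSTU2 and GSTU5 at none. GSTF9 and GSTF10, 77.6% identical in coding bases, were both called at all temperatures.

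Of the 3 genes left out of the members, 2 were higher in Si plants and 1 was not tested. GSTU20, of glucosinolate synthesis, averaged 53.6 ± 8.51, 110.1 ± 13.2, and 110.5 ± 17.6 TPM in Si plants and 4.92 ± 0.99, 5.54 ± 3.73, and 12.7 ± 2.56 TPM in CK plants, with log2 fold changes of 3.21, 4.22, and 3.03. GSTF11, of the same pathway, had 3.25, 3.07, and 1.71, and all 6 values were called. GSTF12, needed to bring anthocyanins to the vacuole, did not pass the filter.

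Of 17 genes of other GST classes 15 were tested, and 2, 1, and 1 were called higher and 0 lower at 22, 25, and 28°C, where 8.00%, 9.43%, and 7.95% of all genes were called higher, shares that also stand beside the other lists of GST-related genes. The list had medians of 0.17, 0.24, and 0.17. These were DHAR2, a dehydroascorbate reductase, with 1.1 at 22°C and 1.08 at 25°C, and AT5G44990, a glutathionyl-hydroquinone reductase, with 1.01 at 22°C and 1.76 at 28°C. The difference between these classes and the members was not tested. Of 7 tested genes of glutathione synthesis and conjugate breakdown (8 listed), 3 were called higher at each temperature, with list medians of 0.89, 0.71, and 0.68. GGP1, a peptidase that trims glutathione conjugates in camalexin and glucosinolate synthesis, had 2.0, 2.0, and 1.97, and PCS1, phytochelatin synthase, had 1.48, 1.27, and 1.59. GGP3, a close relative of GGP1, was called lower at 25°C with −1.20, and GSH1, which makes the first step of glutathione synthesis, was not called, with 0.89 at 22°C.

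The vacuolar transporters of glutathione conjugates are ABCC proteins. Of ABCC1 to ABCC4, 2, 1, and 1 were called higher at 22, 25, and 28°C, with 1.82, 1.97, and 1.94 for ABCC4 and 1.21 at 22°C for ABCC2, and 0 were called lower. Of 12 tested genes that are known to respond with GSTs to reactive chemicals (13 listed), 6, 4, and 5 were called higher, with list medians of 0.98, 0.62, and 0.88. The 12-oxophytodienoate reductase gene OPR1 had 1.49, 1.93, and 1.27, and OPR2 had 1.26, 2.42, and 1.29. CYP81D11 alone was called lower at 28°C, with −1.47. None of the 4 genes TGA2, TGA5, TGA6, and SCL14, whose products regulate such genes, was called between Si and CK (0 of 4 at each temperature). By limma, 2 of the 4 had an unadjusted p under 0.05 at each temperature, and their log2 fold changes lay between −0.23 and 0.36.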

How the data were processed

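RNA-seq of aboveground parts was given as 1 table of 18 samples and 33039 genes. The deposited values are TPM, which per the paper's methods the authors computed with RSEM after aligning filtered reads to TAIR10, while the labels name SeqPrep, Sickle, HISAT2, and StringTie. The sources used here give neither versions of these tools nor read numbers, and no count model was run. All 18 columns were matched to samples by name.

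log2(TPM + 1) of the 20044 genes that reached 1 TPM in 3 or more samples was fitted with limma 3.58.1 in R 4.3.3 (6 group means, variance trend, 12 residual degrees of freedom, two-sided, Benjamini-Hochberg over all genes), with 9 comparisons. Calls needed an adjusted p no higher than 0.05 and, outside interactions, a log2 fold change beyond 1 in either direction. The code was tested on simulated data. The alternatives were pseudocounts of 0.1 and 0.5, no filter, a filter at 5 TPM, only the groups compared, 2 scalings between samples, a replicate block, adjusted p alone, and each sample left out in turn. A count over genes that passed the filter in CK samples alone was added after seeing the data.

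Members, gene lists, and tests were chosen with earlier results of these data known. Values in every sample are given for members called at 3 temperatures, for the largest called members of each comparison (3 per temperature, otherwise 2 per direction), and for the 3 with the highest mean TPM. Values of GSTU5, of GSTU3 at 28°C, and the means and effects of other members not covered by this rule were added after they were seen. Positions, overlaps, and sequences came from RefSeq TAIR10.1, in which all 38 members were found and all 38 deposited lengths equal that of an annotated transcript. Windows of 250 bases and coding alignments were made with Biopython 1.88 in Python 3.11.15, and figures with matplotlib 3.10.9.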

Additional observations from a re-analysis of the deposited data

Results flagged for a closer look

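In 11 cases the Si effect on a member differed between temperatures by the interaction test of limma, and each value is the difference of log2 fold changes from that at 22°C. At 25°C these were GSTU1 (1.70 ± 0.44, adjusted p = 0.0275), GSTF9 (0.50 ± 0.12, adjusted p = 0.0157), and GSTF8 (−0.46 ± 0.12, adjusted p = 0.0255). At 28°C, larger effects were found for GSTF3 (2.07 ± 0.36), GSTF2 (2.04 ± 0.26), GSTF6 (1.69 ± 0.23), GSTF7 (1.28 ± 0.22), and GSTF5 (0.92 ± 0.30), and smaller effects for GSTU24 (−1.30 ± 0.24), GSTF8 (−0.77 ± 0.12), and GSTU5 (−0.69 ± 0.09). GSTF2, GSTF3, and GSTF6 thus had their largest difference at the temperature at which GSTU24, GSTF8, and GSTU5 had their smallest. Of all genes, 4.37% were called larger and 5.36% smaller at 25°C, and 6.92% and 10.2% at 28°C. The call for GSTF5 ends under 20 of 25 alternatives, and that for GSTU24 with a pseudocount of 0.1. For GSTF2 the CK values were lower at 28°C than at 22°C, while for GSTU5 they were higher, with 178.9 ± 3.76 TPM at 28°C and 105.8 ± 5.10 TPM at 22°C (log2 fold change 0.75 ± 0.06, adjusted p = 6.17e-07). All groups have 3 samples, too few for a check of single samples far from the others.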

How the results depend on the processing

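Of 56 calls of single members, 37 were kept under all 26 alternatives, and 4 more under each alternative that gave a value. For 9 of the 56 there is no value under the filter at 5 TPM, which left 20 members tested. No value changed sign. Of the single values, 1383 kept their call and 64 lost it. Most of the 26 alternatives leave out 1 sample. Where that sample lies outside the comparison, the fold change cannot move, and only the shared spread and the adjustment can. These tallies therefore hold many cases that were nearly fixed in advance. With the adjusted p alone, 20 members are called at 22°C and 21 at 25°C between Si and CK (11 each with the fold threshold). The counts for 25 and 28°C against 22°C are 4 and 12 in CK plants (0 and 3) and 5 and 16 in Si plants (0 and 5). Of all genes, 47.4% and 47.8% were then higher and 10.7% and 13.5% lower between Si and CK. In CK plants 8.74% and 41.2% were higher and 2.40% and 7.81% lower. In Si plants 16.6% and 39.0% were higher and 7.06% and 10.5% lower. A pseudocount of 0.1 gives 2, 5, and 8 for 25 against 22°C in CK plants and 28 against 22°C in CK and in Si plants, and both a pseudocount of 0.5 and median-of-ratios scaling give 1 for the first of these (0). With the pseudocount of 0.1, 1.13%, 8.23%, and 7.84% of all genes were called higher and 0.294%, 1.02%, and 1.73% lower. For the first comparison, the pseudocount of 0.5 gave 0.679% higher and 0.205% lower, and median-of-ratios scaling 0.374% and 0.195%. After that scaling, 987 genes in all were called higher and 502 lower at 22°C, against 1603 and 268 without it, while the members had 9 higher and 0 lower.

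Deviations of same-numbered Si and CK samples from their group means had correlations from −0.0276 to 0.162 (9 values, 2 above 0.1). Correlations this weak cannot settle whether the numbers pair samples, and the main fit did not pair them. With the replicate block the interaction at 25°C had 5 calls in place of 3. Of all genes, 5.11% were then called larger and 6.71% smaller, in place of 4.37% and 5.36%. The counts of Si against CK stayed at 11, 11, and 15.

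Leaving out single samples gave counts of 9 to 12 at 22°C, 11 to 14 at 25°C, and 13 to 16 at 28°C for Si against CK, 1 to 5 and 7 to 9 for the interactions at 25 and 28°C, 0 to 1 and 3 to 3 for 25 and 28°C against 22°C in CK plants, and of 0 to 1 and 3 to 9 in Si plants. The count of 1 in CK plants arises without CK replicate 3 at 22°C and that in Si plants without Si replicate 3 at 25°C. Of all genes, 7.52 to 8.89%, 8.94 to 10.4%, and 7.40 to 8.29% were then called higher in Si than in CK plants. For the interactions, 2.44 to 5.65% and 5.25 to 7.14% were called larger, and 3.58 to 5.91% and 7.62 to 11.9% smaller. Against 22°C, at most 0.619% and 5.09% were higher and 0.230% and 0.709% lower in CK plants. In Si plants these were 1.03% and 5.78%, and 1.65% and 1.63%. GSTU3, GSTU11, GSTU12, and GSTF5 lie close to the filter, where a sample of 1 TPM more or less moves the fold change, and since read numbers are unknown, their counting error is too.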

Other observations

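Among the members at low level, several had Si replicates that stood apart together. Si replicate 2 at 22°C had 5.0 TPM of GSTU3 and 4.78 TPM of GSTU11, against 0.71 and 0.12 TPM and 0.49 and 0.51 TPM in the other Si samples of that temperature. It also had the highest values of its group for GSTU4, GSTU10, and GSTU12. At 28°C, Si replicate 2 had the lowest values of its group for GSTU3, GSTU4, GSTU10, GSTU11, and GSTU12, and for 17 of the 30 members tested. Other Si samples had similar counts. Si replicate 3 at 22°C was the lowest for 16 members and Si replicate 1 at 25°C for 15, and Si replicate 3 at 28°C was the highest for 17. How many of all genes did so was not counted. The genes named here were picked after their values were seen.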
